A study of Mus musculus with 9 samples.

Results

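The subject here is a set of 45 genes of macrophages and monocytes, measured in mouse hearts with and without an infarct and after implantation of cells. Members were listed by name, and the list was chosen with earlier results of these data known. Each name matched 1 of the 53465 gene rows in the count tables, and no member was dropped for its values. Of the 45 genes, 44 had enough counts to be tested, among 13825 genes tested in all. Cd209f, a lectin of tissue macrophages, was the member below that limit. RNA was sequenced from 9 libraries of NOD-SCID mice in 3 groups of 3: sham surgery (sham), ligation of a coronary artery (ligation), and ligation followed by implantation of FOXO3-GE-MPCs (cells). In all groups the sampled region is labelled as the infarct border zone of the heart. The strain is common to all groups, and it lacks mature T and B cells while keeping macrophages, monocytes and neutrophils. No group received implanted cells without ligation, and none received other cells after ligation. The labels do not expand the name of the implanted cells, and neither the time after surgery, the age and sex of the mice nor the number of animals per library is given in the sources used here. P-values therefore measure the spread between libraries, which may be technical. The file headers give sham replicates 1 and 2 a common name stem, and likewise ligation replicates 2 and 3, so these groups may hold 2 independent samples each. Counts within both pairs differed beyond sampling noise (mean chi-square per gene of 3.98 and 2.31), and all 9 libraries were kept. Replicates 2 and 3 of the cell group carry FOXO4 and FOXO5 in 1 source field, while their titles and treatment fields say FOXO3, which was followed.

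Macrophages of the heart come from a long-lived resident pool and from blood monocytes that enter after injury. Resident cells are marked by scavenger and uptake receptors such as CD163, the mannose receptor and LYVE1. Monocytes that enter tissue carry Ly6C and PLAC8, and macrophages loaded with lipid or debris make TREM2 and GPNMB. Both pools depend on the growth factor receptor CSF1R and on the transcription factor PU.1, and both take up dead cells and antibody-coated particles. In bulk tissue, fewer cells of a type and less RNA per cell cannot be told apart, and this holds for every value here.

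The libraries held 4549268 to 7515052 gene counts, and the 45 genes took 0.112 to 0.113% of them in sham, 0.205 to 0.207% in ligation and 0.0976 to 0.0997% with cells. Values below are CPM (counts scaled to a common library size) and normalised with TMM factors, and 3 counts in a library corresponded to 0.375 to 0.639 CPM. Mitochondrially encoded genes took 19.1 to 19.9% of gene counts in the sham libraries, 12.6 to 13.9% in those of ligation and 14.3% in the cell group. Summed levels of 7 cardiomyocyte genes were 45600 to 47000 CPM in sham, 34800 to 36600 CPM in ligation and 34000 to 34900 CPM with cells. Defining genes of T cells (Cd3d) and B cells (Ms4a1) had 0 counts in all 9 libraries. The 7 T cell genes summed to at most 3.41 CPM, the 6 B cell genes to at most 2.13 CPM and the 7 natural killer cell genes to at most 3.76 CPM.

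Most macrophage genes were higher in ligation than in sham, and most were lower with cells than in ligation. Against sham, 29 of the 44 tested members were higher in ligation and 3 were lower (Cd163, Pf4 and Ly6c2) at an adjusted p under 0.05, using the quasi-likelihood test of edgeR and Benjamini-Hochberg adjustment over all genes tested. In that comparison 38.2% of all tested genes were called, 20.1% higher and 18.0% lower. The median log2 fold change of the members was 0.75, against 0.00804 over all genes. Against ligation, 38 members were lower with cells and 0 were higher, where 9.87% of all tested genes were called, 5.69% lower and 4.19% higher. At an unadjusted p under 0.05 the counts were 41 lower and 0 higher, and DESeq2 called 38 lower and 0 higher. Their median log2 fold change was -1.25, against 0.00195 over all genes.

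The direct comparison of cells with sham does not use the ligation libraries as a group. It had 23 members lower and 4 higher, among them Plac8, Gpnmb and Lgals3. Of all tested genes 40.9% were called here, 20.0% lower and 21.0% higher. The median was -0.56, against -0.00735 over all genes. The share of higher genes among the members called was 14.8%, and 26.1% with library totals as the only scaling. That scaling moved the median gene by 0.16 on the log2 scale in this comparison and by 0.19 between ligation and sham. Under it 33 members were higher and 1 lower in ligation than in sham, and 6 were higher and 17 lower with cells than in sham. Among the members given below by library, it ended the calls of Cd163 and Ly6c2 between ligation and sham and of Spi1, Tyrobp, Axl, Folr2 and Ly6c2 between cells and sham. It called Mrc1, Fcgr2b, Fcgr3 and Axl higher in ligation than in sham, and Trem2 and Mpeg1 higher with cells than in sham. All changes below are therefore relative to the median gene. Since the first 2 comparisons share the ligation libraries, the levels in all 3 groups are given side by side for each gene.

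Counted over all 45 members by the CPM ranges of the libraries, 31 lay wholly above sham in ligation and 4 wholly below, against 25.0% and 22.6% of all tested genes. With cells, 0 lay above ligation and 40 below, against 13.2% and 14.0% of all tested genes. Set against sham, 5 lay above and 26 below with cells, against 25.4% and 24.5%.

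Taking the 3 tests together, 10 members were higher with ligation, lower with cells than in ligation, and lower with cells than in sham. They were Adgre1, Cd68, Csf1r, Aif1, Spi1, Ptprc, Laptm5, Cd53, Tyrobp and Stab1. Another 15 rose with ligation and were lower with cells, with no call between cells and sham: Lyz2, Mpeg1, Maf, Cd84, Fcgr1, Fcgr4, Cd14, Clec4n, Clec7a, Ms4a7, Ms4a6c, Cybb, Ncf4, Ctss and Trem2. A further 8 passed no test between ligation and sham and were lower with cells than in both other groups: Cd52, Fcgr2b, Fcgr3, Fcer1g, Lyve1, Mrc1, Mertk and Axl. Cd163 and Pf4 were lower at both steps. Lgals3 rose with ligation and was lower with cells but still above sham, and Plac8 and Gpnmb were above sham in both groups with no call between these groups. Lilrb4a was called only between cells and ligation, Folr2 and Chil3 only between cells and sham, and Ly6c2 was lower than sham in both groups. Slc11a1, a metal transporter of the phagosome, passed none of the 3 tests.

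**Figure D1:**
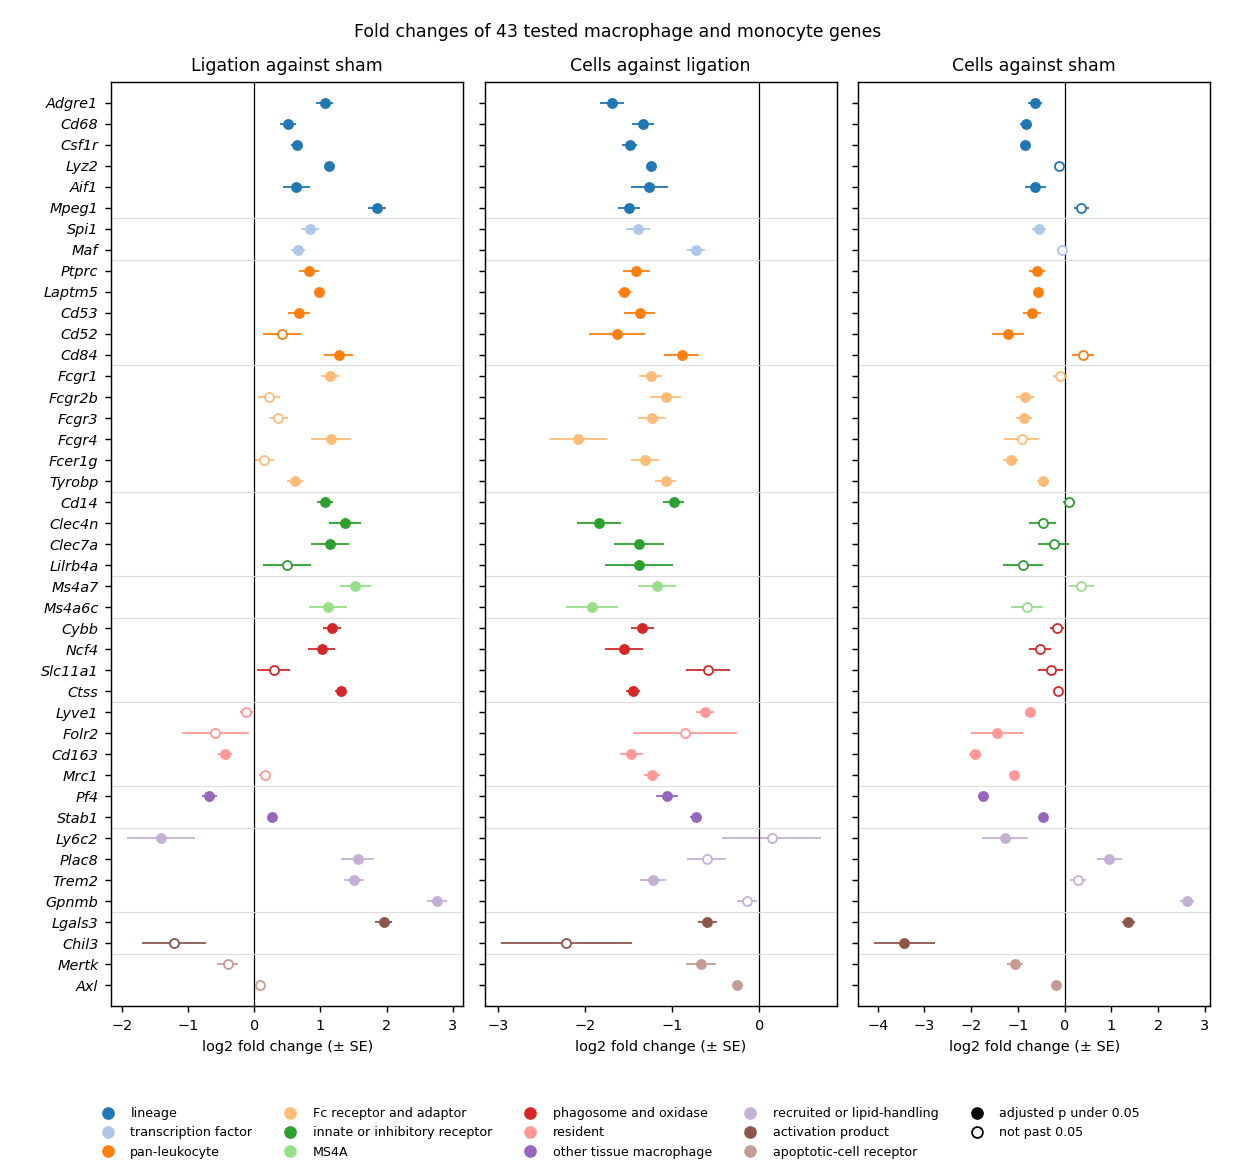
Log2 fold change (x axis, ± SE) of 43 tested genes (y axis, coloured by role) in the 3 comparisons; filled points passed an adjusted p of 0.05, and open points did not. In the middle panel 42 of 43 points lie left of 0, while Gpnmb, Lgals3 and Plac8 lie right of 0 in the other 2 panels.

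Genes that define the lineage moved together: all 6 were higher in ligation and lower with cells. Csf1r encodes the receptor for CSF1 and IL-34, on which macrophages depend. Its level was 54.6, 50.4 and 45.1 CPM in sham replicates 1 to 3, 77.6, 76.4 and 79.6 CPM in ligation, and 29.9, 25.2 and 28.1 CPM with cells. The 3 groups did not overlap, and the cell libraries were the lowest. The log2 fold change was 0.64 ± 0.0795 (SE) with ligation (edgeR adjusted p = 1.69e-06), -1.49 ± 0.0838 between cells and ligation (edgeR adjusted p = 7.77e-11) and -0.85 ± 0.0880 between cells and sham (edgeR adjusted p = 1.35e-07). Of the Csf1r exons, 15.1% overlap Hmgxb3 on the other strand, a gene at 13.5 to 18.9 CPM over the libraries.

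Adgre1 encodes F4/80, the classical surface marker of mouse macrophages. It stood at 16.6, 13.0 and 16.5 CPM in sham, 35.6, 28.2 and 32.9 CPM in ligation and 8.94, 11.4 and 9.36 CPM with cells. Ligation was 2.09-fold above sham (edgeR adjusted p = 1.80e-06), and every cell library was below every sham library, with a log2 fold change of -0.63 ± 0.153 (SE; edgeR adjusted p = 0.00230). Cd68, a lysosomal membrane protein of phagocytes, was 15.5, 17.6 and 17.9 CPM in sham, 25.8, 23.6 and 23.5 CPM in ligation and 9.64, 8.88 and 10.2 CPM with cells. It too had 3 separate ranges in the same order.

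Lyz2 encodes lysozyme M, a secreted antibacterial enzyme of macrophages and neutrophils, and had the highest level per kilobase of exon among the members in each group. Counts gave 296, 282 and 269 CPM in sham, 623, 634 and 597 CPM in ligation and 266, 264 and 253 CPM with cells. Ligation was 2.19-fold above sham (edgeR adjusted p = 2.18e-13) and cells were 2.37-fold below ligation (edgeR adjusted p = 4.17e-13). Cells and sham lay close together, with a log2 difference of -0.11 ± 0.0488 (SE; edgeR adjusted p = 0.0743), which became 0.0470 with scaling by library totals. Without sham replicate 3 it was -0.147 with an adjusted p of 0.0348, and without ligation replicate 3 it was -0.128 with 0.0396. Of its exonic 31-base words, 32.8% also occur in another gene, chiefly Lyz1, which was at most 6.80 CPM in any library.

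Mpeg1, which encodes the pore-forming protein perforin-2, had the largest rise of the lineage genes. It went from 14.9, 12.7 and 17.5 CPM in sham to 59.2, 54.8 and 50.1 CPM in ligation, a log2 fold change of 1.85 ± 0.138 (SE; edgeR adjusted p = 1.00e-09). With cells it was 15.0, 23.9 and 18.9 CPM, which overlaps the sham range. The log2 change between cells and sham was 0.36 (edgeR adjusted p = 0.071), and it was past the threshold without sham replicate 3 (0.482, adjusted p = 0.0362), without cell replicate 1 (0.507, 0.00993) and with no filter on low counts (0.0233). Aif1, an actin-binding protein of microglia and macrophages also called IBA1, rose by 0.63 on the log2 scale with ligation and fell by 1.26 with cells against ligation.

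**Figure D2:**
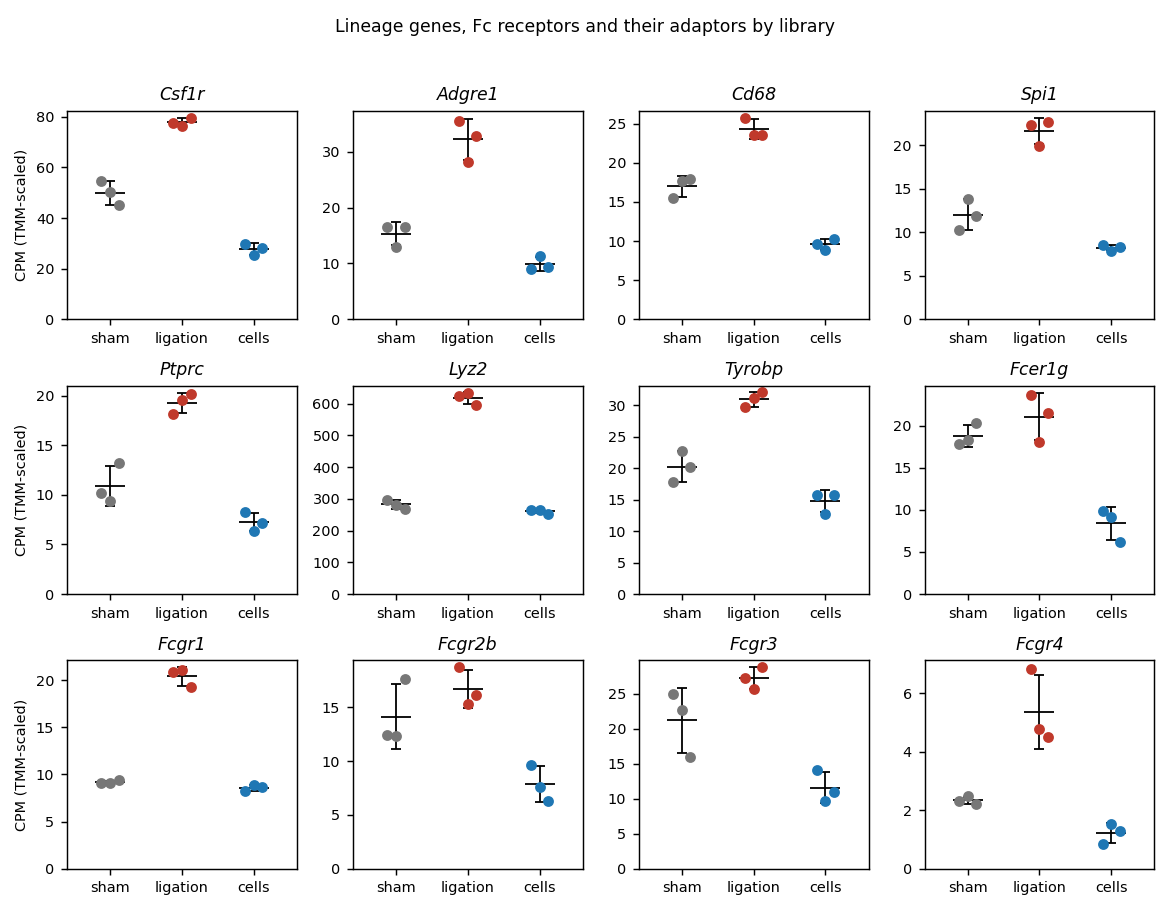
CPM (y axis, from 0) in each library of the 3 groups (x axis) for 12 lineage, signalling and Fc receptor genes; points are libraries, and bars are the mean ± SD of 3. Csf1r, Adgre1 and Cd68 form 3 separate levels, while Lyz2 and Fcgr1 are at nearly the same level in sham and with cells.

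Spi1 encodes PU.1, the ETS-family transcription factor required for the myeloid lineage. It was 10.3, 13.8 and 11.9 CPM in sham, 22.4, 20.0 and 22.8 CPM in ligation and 8.51, 7.91 and 8.36 CPM with cells. The cell libraries were the lowest and most even. Its log2 fold change was 0.85 ± 0.137 (SE) with ligation (edgeR adjusted p = 4.88e-05) and -1.39 ± 0.142 between cells and ligation (edgeR adjusted p = 7.78e-07). Between cells and sham it was -0.54 ± 0.155 (edgeR adjusted p = 0.00780), and -0.434 without sham replicate 2, where the adjusted p was 0.0521. Maf, a transcription factor of macrophage differentiation, rose by 0.66 with ligation, fell by 0.73 with cells against ligation, and ended at 25.9 ± 2.40 CPM (SD, n = 3) against 27.2 ± 3.28 CPM in sham.

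Because PU.1 binds purine-rich sites with the core GGAA, and GAGGAA is a common form, the members' promoters were searched for GAGGAA on both strands. RefSeq promoter windows of 300 bases, 250 before and 50 after the transcript start (build GRCm38.p6), were found for 33 of the 45 members. At least 1 match was present for 21 of 33 members (63.6%), against 8446 of 27025 genes in the whole table (31.3%) and 3146 of 10262 tested genes (30.7%). A match is a run of letters and not a measured binding site. The 140 bases before the start are shown for 7 members whose levels differ in pattern, with capitals marking GAGGAA or its reverse complement TTCCTC. The first 3 are genes that rose with ligation and were lower with cells.
Laptm5, chr4:130913176-130913315, plus strand: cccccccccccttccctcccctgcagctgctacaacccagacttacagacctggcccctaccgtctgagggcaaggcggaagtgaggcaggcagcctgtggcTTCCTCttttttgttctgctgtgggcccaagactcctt
Fcgr1, chr3:96293970-96294109, minus strand: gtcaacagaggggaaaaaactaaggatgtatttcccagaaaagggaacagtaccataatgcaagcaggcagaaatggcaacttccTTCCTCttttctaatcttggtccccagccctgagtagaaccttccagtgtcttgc
Fcgr4, chr1:171018786-171018925, plus strand: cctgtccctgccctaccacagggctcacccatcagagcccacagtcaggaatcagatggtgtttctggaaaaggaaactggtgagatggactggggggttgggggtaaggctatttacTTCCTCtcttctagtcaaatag

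The other 4 belong to the resident genes (Mrc1 and Cd163) and to the lipid-handling genes (Trem2 and Gpnmb). Trem2 and Mrc1 hold 1 match each in this stretch, and Cd163 and Gpnmb hold none. The start used for Cd163 and Gpnmb was not found in a GENCODE transcript of the gene, whereas 32 of the 40 member windows had such a start.
Trem2, chr17:48346261-48346400, plus strand: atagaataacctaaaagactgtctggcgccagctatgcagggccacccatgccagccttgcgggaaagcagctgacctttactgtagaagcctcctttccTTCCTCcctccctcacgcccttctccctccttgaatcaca
Mrc1, chr2:14229274-14229413, plus strand: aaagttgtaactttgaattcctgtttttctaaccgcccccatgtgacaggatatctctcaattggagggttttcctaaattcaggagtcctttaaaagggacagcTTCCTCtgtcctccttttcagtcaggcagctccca
Cd163, chr6:124304511-124304650, plus strand: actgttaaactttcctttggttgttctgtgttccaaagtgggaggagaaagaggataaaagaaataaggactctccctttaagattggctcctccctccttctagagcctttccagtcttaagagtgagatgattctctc
Gpnmb, chr6:49036378-49036517, plus strand: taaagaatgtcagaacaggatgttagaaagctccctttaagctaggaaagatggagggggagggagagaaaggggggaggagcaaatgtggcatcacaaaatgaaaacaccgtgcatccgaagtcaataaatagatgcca

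Surface and lysosomal proteins found on many leukocytes followed the lineage genes, with 4 of 5 higher in ligation and 5 of 5 lower with cells than in ligation. Ptprc encodes CD45, the phosphatase carried by all white blood cells. It was 10.1, 9.39 and 13.2 CPM in sham, 18.1, 19.5 and 20.1 CPM in ligation and 8.23, 6.38 and 7.20 CPM with cells. The log2 fold change was 0.82 ± 0.152 (SE) with ligation and -1.41 ± 0.157 with cells against ligation (edgeR adjusted p = 0.000198 and 2.82e-06). Cells were below sham by -0.59 (edgeR adjusted p = 0.00939), but this call was lost without sham replicate 3, with -0.425 and an adjusted p of 0.0784. Laptm5, a lysosomal protein of blood cells whose promoter is shown above, was 40.9, 37.4 and 42.1 CPM in sham, 78.2, 76.3 and 82.0 CPM in ligation and 25.0, 26.8 and 29.2 CPM with cells. Its 3 ranges were separate, and it fell by 1.55 on the log2 scale between ligation and cells (edgeR adjusted p = 2.11e-11). Cd53, a tetraspanin, and Cd84, a SLAM-family receptor, rose by 0.68 and 1.28 with ligation and fell by 1.37 and 0.89 with cells against ligation. Cd52, a small surface glycoprotein, had 4.51 ± 1.20 CPM in sham, 5.98 ± 1.48 CPM in ligation and 1.93 ± 0.669 CPM with cells (SD, n = 3).

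Fc receptors bind antibody, and in mice Fcgr1, Fcgr3 and Fcgr4 activate through the adaptor encoded by Fcer1g, while Fcgr2b inhibits. All 4 receptors were lower with cells than in ligation, and Fcgr1 and Fcgr4 were called higher in ligation than in sham. Differences between the receptors were not tested. Fcgr1, the high-affinity receptor, was 9.08, 9.06 and 9.37 CPM in sham, 20.9, 21.1 and 19.2 CPM in ligation and 8.23, 8.88 and 8.64 CPM with cells. It was 2.22-fold higher in ligation than in sham (edgeR adjusted p = 8.78e-07), and cells and sham differed by -0.10 ± 0.151 on the log2 scale (SE; edgeR adjusted p = 0.649), or by 0.0629 with scaling by library totals. Fcgr4 was low, at 2.31, 2.47 and 2.22 CPM in sham, 6.82, 4.78 and 4.50 CPM in ligation and 0.851, 1.53 and 1.30 CPM with cells. Its fall of 2.08 on the log2 scale between ligation and cells (edgeR adjusted p = 0.000204) was the largest of any member called in that comparison.

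Fcgr2b and Fcgr3 passed no test between ligation and sham. Fcgr2b was 12.5, 12.4 and 17.6 CPM in sham, 18.8, 15.3 and 16.1 CPM in ligation and 9.64, 7.63 and 6.34 CPM with cells. Fcgr3 was 24.9, 22.7 and 16.0 CPM in sham, 27.3, 25.6 and 28.8 CPM in ligation and 14.0, 9.71 and 10.9 CPM with cells. In both genes every cell library was below every other library. The log2 fold changes with cells against ligation were -1.07 and -1.24 (edgeR adjusted p = 0.000334 and 1.44e-05), and against sham -0.85 and -0.87 (edgeR adjusted p = 0.000880 and 0.000207). The rise of Fcgr3 with ligation, 0.37 (edgeR adjusted p = 0.0552), passed without sham replicate 1 (0.493, adjusted p = 0.0227) and without cell replicate 1 or 2 (adjusted p = 0.0400 and 0.0407). It also passed with no filter on low counts (0.0201) and in the fit on 2 groups (0.0449).

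The signalling adaptors FcRγ (Fcer1g) and DAP12 (Tyrobp) carry activation motifs that recruit the kinase SYK, and TREM2 signals through DAP12. Fcer1g was 17.8, 18.3 and 20.3 CPM in sham, 23.6, 18.1 and 21.5 CPM in ligation and 9.93, 9.15 and 6.19 CPM with cells. Sham and ligation overlapped, and cells were lower than both. Tyrobp was 17.8, 22.7 and 20.2 CPM in sham, 29.6, 31.1 and 32.0 CPM in ligation and 15.7, 12.8 and 15.7 CPM with cells, with 3 separate ranges. With cells against ligation Fcer1g fell by 1.31 and Tyrobp by 1.07 (edgeR adjusted p = 1.01e-05 and 2.75e-06). Neutrophils also carry Fc receptors, these adaptors and CD45. The 9 neutrophil genes summed to 39.4 to 46.5 CPM in sham, 15.3 to 21.1 CPM in ligation and 5.91 to 6.80 CPM with cells, and their part in these results was not tested. S100a8 and S100a9 carried most of that sum in sham, at 14.5 and 19.0 CPM on average.

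Receptors for microbial and damage-derived ligands were higher in ligation in 3 of 4 cases and lower with cells than in ligation in 4 of 4, with 0 of 4 called between cells and sham. Cd14, the coreceptor for endotoxin, was 16.3 ± 2.73 CPM in sham, 33.9 ± 2.78 CPM in ligation and 17.3 ± 0.837 CPM with cells (SD, n = 3). The C-type lectins Clec4n and Clec7a, which bind fungal sugars and encode dectin-2 and dectin-1, rose by 1.37 and 1.14 with ligation and fell by 1.84 and 1.38 with cells against ligation (edgeR adjusted p at most 0.00347 in these 4 tests). Clec4n had the next largest fall of a called member with hardly any shared sequence (1.96% of its words), from 8.52, 8.97 and 8.50 CPM to 2.13, 1.94 and 3.17 CPM. Lilrb4a, an inhibitory receptor, was low at 2.93 ± 1.42, 3.97 ± 1.54 and 1.55 ± 0.417 CPM, and 56.1% of its sequence words also occur in other genes, chiefly Lilr4b.

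The tetraspan protein genes Ms4a7 and Ms4a6c both rose with ligation and both were lower with cells. Ms4a7 was 4.04 ± 0.871 CPM in sham, 11.7 ± 0.419 CPM in ligation and 5.17 ± 1.83 CPM with cells (SD, n = 3). Ms4a6c was 3.74, 2.47 and 3.97 CPM in sham, 5.97, 9.55 and 6.38 CPM in ligation and 1.56, 2.50 and 1.73 CPM with cells, and fell by 1.92 on the log2 scale between ligation and cells (edgeR adjusted p = 0.000178). Cells and sham were not separated by the test in either gene. For Ms4a6c that result turned on single libraries: the log2 change of -0.81 (edgeR adjusted p = 0.0636) became -0.992 without sham replicate 2 and -1.03 without cell replicate 2 (adjusted p = 0.0354 and 0.0412). It shares 58.1% of its sequence words, chiefly with BE692007, and is uncertain in that respect.

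The phagocyte oxidase makes superoxide in the phagosome, and Cybb encodes its membrane subunit gp91phox. Cybb was 12.1, 9.72 and 13.0 CPM in sham, 24.3, 28.5 and 25.6 CPM in ligation and 10.9, 9.99 and 10.1 CPM with cells. Ligation stood apart, and cells overlapped sham, with log2 fold changes of 1.17 ± 0.134, -1.34 ± 0.133 and -0.17 ± 0.150 (SE; edgeR adjusted p = 5.59e-07, 5.30e-07 and 0.393). Ncf4, a cytosolic subunit, rose by 1.02 and fell by 1.55. Ctss, the cathepsin that trims the invariant chain for antigen presentation, went from 28.6 ± 0.400 CPM to 71.0 ± 4.32 CPM and was 25.9 ± 1.63 CPM with cells (SD, n = 3). Slc11a1 overlapped between groups, at 7.10 ± 1.48, 8.45 ± 2.34 and 5.76 ± 1.84 CPM.

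Genes of resident macrophages were lowest with cells. Of Lyve1, Folr2, Cd163 and Mrc1, 0 were higher and 1 was lower in ligation than in sham, 3 of 4 were lower with cells than in ligation, and 4 of 4 were lower with cells than in sham. Their median log2 fold changes were -0.28, -1.05 and -1.26 in these comparisons. The medians of the 6 lineage genes were 0.85, -1.41 and -0.63.

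Cd163 (ENSMUSG00000008845, chromosome 6, 124304656 to 124330527 on the plus strand of GRCm38) encodes the scavenger receptor for haemoglobin bound to haptoglobin. It was 38.6, 36.4 and 35.7 CPM in sham, 27.7, 25.8 and 28.0 CPM in ligation and 8.09, 12.2 and 9.07 CPM with cells. It stepped down through 3 separate ranges. The log2 fold change was -0.44 ± 0.112 (SE) with ligation (edgeR adjusted p = 0.00354), -1.47 ± 0.132 with cells against ligation (edgeR adjusted p = 1.35e-07) and -1.91 ± 0.128 with cells against sham (edgeR adjusted p = 1.86e-10). With scaling by library totals the first step was -0.254 and its adjusted p was 0.0723.

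Mrc1 (ENSMUSG00000026712, chromosome 2, 14229392 to 14332057, plus strand) encodes the mannose receptor CD206, an uptake receptor for glycoproteins. It was 61.9, 57.8 and 65.1 CPM in sham, 76.9, 69.5 and 61.1 CPM in ligation and 28.9, 31.8 and 26.6 CPM with cells. Sham and ligation overlapped (log2 fold change 0.16 ± 0.0858, SE; edgeR adjusted p = 0.167), or differed by 0.343 with scaling by library totals (adjusted p = 0.00190). Cells were 2.36-fold below ligation and 2.12-fold below sham (edgeR adjusted p = 7.62e-09 and 8.83e-09).

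Lyve1 (ENSMUSG00000030787, chromosome 7, 110850607 to 110863239, minus strand) encodes a hyaluronan receptor of perivascular macrophages and of lymphatic endothelium. It was 55.2, 53.9 and 66.0 CPM in sham, 57.7, 53.4 and 50.9 CPM in ligation and 31.9, 40.9 and 32.0 CPM with cells. The first 2 groups overlapped, and the cell libraries were below both, with log2 fold changes of -0.12 ± 0.0974, -0.62 ± 0.101 and -0.74 ± 0.101 (SE; edgeR adjusted p = 0.356, 0.000284 and 5.54e-06). The first of these was 0.0676 with scaling by library totals. Another 5 lymphatic endothelial genes (Prox1, Pdpn, Flt4, Mmrn1 and Reln) summed to 123 to 125 CPM in sham, 138 to 160 CPM in ligation and 141 to 165 CPM with cells. Prox1 and Flt4 made up most of that sum, and the part of lymphatic endothelium in the Lyve1 result was not tested. Within the list Pdpn, a membrane glycoprotein also found outside lymphatics, was higher in ligation than in sham (0.91, edgeR adjusted p = 0.000199) and lower with cells than in ligation (-0.53, edgeR adjusted p = 0.0384), at 18.6 CPM in ligation and 13.1 CPM with cells on average.

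Folr2 (ENSMUSG00000032725, chromosome 7, 101839988 to 101857194, minus strand), a folate receptor, was near the detection limit. It was 1.07, 1.98 and 2.38 CPM in sham, 2.56, 0.724 and 0.750 CPM in ligation and 0.425, 0.971 and 0.576 CPM with cells. Only cells and sham differed (-1.44 ± 0.557, SE; edgeR adjusted p = 0.0442). That call was lost without sham replicate 2 or 3 (adjusted p = 0.109 and 0.166), without cell replicate 1 or 3 (adjusted p = 0.142 and 0.111), by DESeq2 (0.0805), and when the libraries with a common header stem were summed (0.0524). In addition, 63.1% of its exons overlap Gm10602 on the other strand, so the counts are uncertain without knowledge of the strand setting.

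Pf4 and Stab1 are further genes of tissue macrophages. Pf4 encodes the chemokine CXCL4, also made by megakaryocytes and stored in platelets. It was 29.9, 34.4 and 33.0 CPM in sham, 20.7, 19.0 and 21.1 CPM in ligation and 8.79, 10.3 and 10.1 CPM with cells. Like Cd163 it stepped down through 3 separate ranges, with log2 fold changes of -0.68 ± 0.110, -1.06 ± 0.126 and -1.74 ± 0.120 (SE; edgeR adjusted p = 4.40e-05, 6.80e-06 and 2.94e-10). The 5 platelet genes (Ppbp, Itga2b, Gp9, Gp1ba and Gp1bb) summed to 5.60 to 8.37 CPM in sham, 8.97 to 11.5 CPM in ligation and 7.92 to 8.65 CPM with cells. Stab1, a scavenger receptor of macrophages and sinusoidal endothelium, was 131 ± 9.73, 158 ± 10.3 and 95.3 ± 5.39 CPM (SD, n = 3).

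Recruited or lipid-handling genes were not called in 1 direction. Of Ly6c2, Plac8, Trem2 and Gpnmb, 3 were higher and 1 was lower in ligation than in sham. With cells, 1 of 4 was lower than in ligation, and 2 were higher and 1 was lower than in sham. Their median log2 fold changes were 1.53, -0.38 and 0.62.

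Gpnmb (ENSMUSG00000029816, chromosome 6, 49036546 to 49070929 on the plus strand) encodes a glycoprotein of lysosomes and of lipid-laden macrophages. It was 3.92, 3.79 and 4.76 CPM in sham, 32.0, 29.2 and 24.8 CPM in ligation and 26.4, 26.2 and 24.3 CPM with cells. Both infarct groups were far above sham, and they overlapped each other. Gpnmb was 6.78-fold above sham in ligation and 6.13-fold above sham with cells (edgeR adjusted p = 1.63e-11 and 3.54e-11). Between cells and ligation the log2 difference was -0.15 ± 0.114 (SE; edgeR adjusted p = 0.497).

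Trem2 (ENSMUSG00000023992, chromosome 17, 48346401 to 48354147, plus strand) encodes a lipid-sensing receptor of macrophages. It was 7.83, 10.2 and 6.99 CPM in sham, 24.3, 20.8 and 26.1 CPM in ligation and 10.5, 9.71 and 10.4 CPM with cells. Unlike Gpnmb it was lower with cells than in ligation in every library, by a log2 difference of -1.22 ± 0.145 (SE; edgeR adjusted p = 6.43e-06). Cells overlapped sham (0.29 ± 0.171, edgeR adjusted p = 0.190), or passed with 0.446 when scaled by library totals (adjusted p = 0.0399).

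Plac8 (ENSMUSG00000029322, chromosome 5, 100553725 to 100572245, minus strand) is a cysteine-rich protein of monocytes and other leukocytes. It was 3.56, 2.47 and 2.38 CPM in sham, 8.74, 8.39 and 7.75 CPM in ligation and 4.82, 6.66 and 4.75 CPM with cells. The cell group lay between the others without overlap, but the difference from ligation did not pass (-0.61 ± 0.220, SE; edgeR adjusted p = 0.0924). It was above sham by 1.56 in ligation and by 0.96 with cells (edgeR adjusted p = 4.63e-05 and 0.00624).

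Ly6c2 (ENSMUSG00000022584, chromosome 15, 75108158 to 75111970, minus strand) encodes Ly6C, the surface marker of inflammatory monocytes. It was 1.07, 6.09 and 11.1 CPM in sham, 2.98, 1.74 and 2.38 CPM in ligation and 1.84, 1.80 and 4.03 CPM with cells. The sham libraries spread over the whole range of the others. Its calls as lower than sham (edgeR adjusted p = 0.0336 in ligation and 0.0445 with cells) were lost with DESeq2 (0.176 and 0.212). Without sham replicate 3 the log2 changes were -0.648 and -0.509 (adjusted p = 0.383 and 0.481). They were also lost without sham replicate 2 (0.0602 and 0.0779) and without ligation replicate 2 (0.118 and 0.0510). The ligation call was lost without ligation replicate 3 (0.0776) and the cell call without cell replicate 1 or 2 (0.132 and 0.119). Ly6c2 shares 23.8% of its sequence words with other genes, chiefly Ly6c1, an endothelial gene at 560 to 588 CPM in sham, 243 to 277 CPM in ligation and 251 to 260 CPM with cells.

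**Figure D3:**
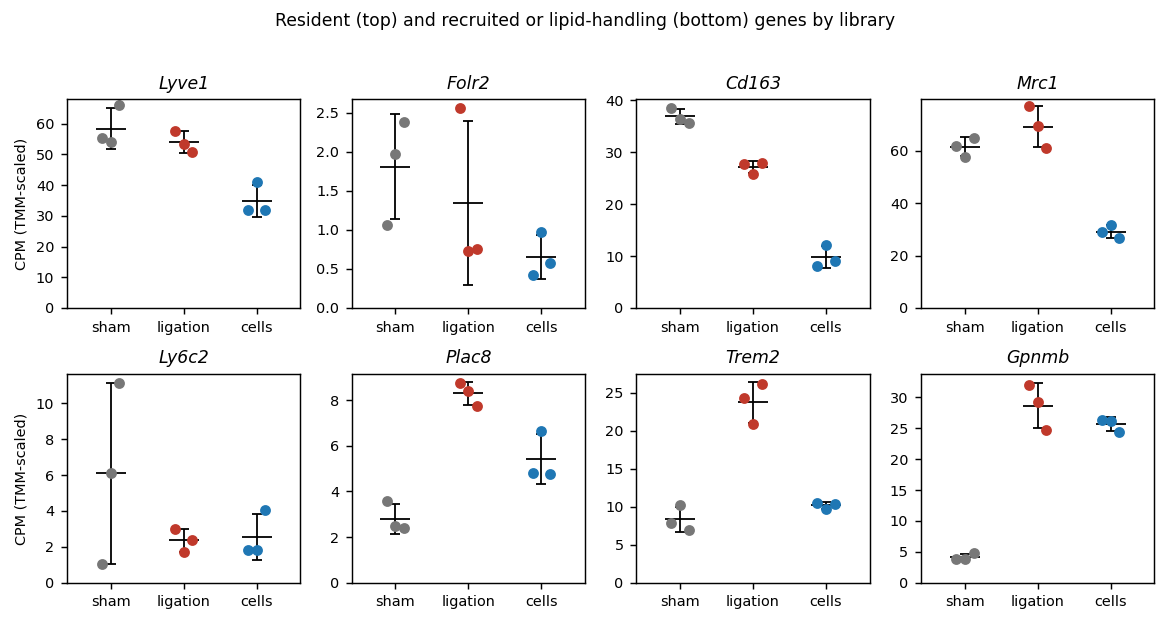
CPM (y axis, from 0) in each library of the 3 groups (x axis) for the 4 resident genes and the 4 recruited or lipid-handling genes; points are libraries, and bars are the mean ± SD of 3. Cd163 falls at both steps, Mrc1 and Lyve1 are low only with cells, Trem2 is high only in ligation, and Gpnmb is high in both infarct groups.

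Averaged as log2(CPM + 0.5), the resident genes stood at 4.55 ± 0.138 in sham, 4.35 ± 0.250 in ligation and 3.39 ± 0.232 with cells, and the recruited or lipid-handling genes at 2.34 ± 0.327, 3.52 ± 0.132 and 3.05 ± 0.102 (SD, n = 3). The recruited minus resident difference was -2.46, -2.08 and -2.11 in the sham libraries, -0.977, -0.816 and -0.706 in ligation and -0.260, -0.618 and -0.125 with cells. It was thus less negative in both infarct groups than in sham, and the ranges of all 3 groups were separate. Relative to the 6 lineage genes, the resident genes were at -0.283 ± 0.0814, -1.45 ± 0.156 and -1.02 ± 0.159. Relative to the same genes, the whole recruited set was at -2.50 ± 0.286, -2.28 ± 0.0577 and -1.35 ± 0.144, with sham and ligation overlapping (-2.83 to -2.32 and -2.35 to -2.25). Without the unstable Ly6c2, the member that was lower in ligation, it was at -2.49 ± 0.132, -1.61 ± 0.0173 and -0.847 ± 0.0125, so its ligation value stood apart from sham only with that member left out. No test was made of these averages, because the members were chosen as a set.

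**Figure D4:**
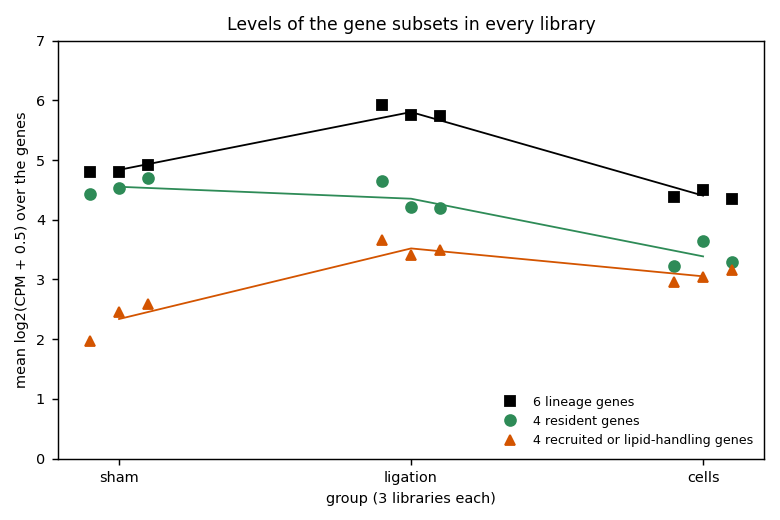
Mean log2(CPM + 0.5) of the lineage, resident and recruited or lipid-handling genes (y axis) in each library of the 3 groups (x axis). Points are libraries, and lines join the group means. The recruited minus resident difference, which is not drawn, lies between -2.46 and -2.08 in sham. It lies between -0.977 and -0.706 in ligation and between -0.618 and -0.125 with cells.

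As shares of the summed CPM of the 45 members, the resident genes made up 12.5 to 13.8% in sham, 7.31 to 8.31% in ligation and 7.21 to 8.82% with cells. The recruited or lipid-handling genes made up 1.34 to 2.06%, 3.06 to 3.42% and 4.56 to 4.60%. Gpnmb alone took 0.314 to 0.389% of the members' sum in sham libraries, 1.29 to 1.61% in the ligation libraries and 2.57 to 2.79% in the cell libraries. The members' total went the other way at the second step: it was 1210 to 1230 CPM in sham, 1920 to 1990 CPM in ligation and 947 to 974 CPM with cells.

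Ranked by CPM per kilobase of exon, which allows levels to be compared between genes, Lyz2 was first in every group, at 214, 470 and 198. Pf4 held rank 2 in sham and rank 5 in both infarct groups. Gpnmb ranked 40 of 45 in sham, 30 in ligation and 18 with cells, and Lgals3 ranked 18, 8 and 6. Cd163 ranked 15 in sham and 27 in both infarct groups. Csf1r held rank 14 in all 3.

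Products of activated macrophages did not move as one. Lgals3 encodes galectin-3, a lectin secreted by macrophages and other cells of injured tissue. It was 8.72, 9.72 and 9.68 CPM in sham, 38.8, 37.5 and 33.8 CPM in ligation and 20.7, 27.3 and 24.3 CPM with cells. The 3 groups were separate, with cells between the others, and the log2 fold changes were 1.96 ± 0.130, -0.60 ± 0.110 and 1.36 ± 0.135 (SE; edgeR adjusted p = 1.91e-10, 0.000984 and 7.25e-08).

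Chil3, a chitinase-like secreted protein of macrophages and neutrophils, was lower with cells than in sham. It was 1.78, 2.80 and 2.06 CPM in sham, 0.213, 0.724 and 1.62 CPM in ligation and 0.142, 0.277 and 0.144 CPM with cells. The cell libraries held 4 counts in all and sham held 40, a ratio of 0.0848 (exact 95% interval 0.0220 to 0.235, counting error only; edgeR adjusted p = 0.000247). Between ligation and sham the log2 change was -1.21 ± 0.486 (SE; edgeR adjusted p = 0.0550), and -2.10 without ligation replicate 3 (adjusted p = 0.0126). In the fit on 2 groups that adjusted p was 0.0487. Between cells and ligation the ratio was 0.195 (0.0482 to 0.586), with an adjusted p of 0.0687, or 0.0309 without ligation replicate 1. Chil3 would not have been tested without its sham libraries, where it was high, so these p-values are no independent support. It shares 41.5% of its sequence words, chiefly with Chil4, which had 0 counts. The sum of the neutrophil genes given above was likewise lower in ligation than in sham and lowest with cells, though within it Csf3r (4.14, 6.35 and 1.61 CPM on average) was not lower in ligation, and their part in the result was not tested.

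Mertk and Axl are receptor kinases that recognise dying cells through the bridging proteins GAS6 and protein S. Mertk, which serves uptake by resident macrophages, was 21.2, 19.8 and 24.4 CPM in sham, 13.4, 19.1 and 16.4 CPM in ligation and 7.66, 13.0 and 10.4 CPM with cells. Each group lay below the one before. Cells were below sham by a log2 difference of -1.07 ± 0.170 (SE; edgeR adjusted p = 3.45e-05). The step from ligation to cells, -0.67 ± 0.175 (edgeR adjusted p = 0.0163), was lost without ligation replicate 2 (-0.546, adjusted p = 0.108), ligation replicate 3 (-0.675, 0.0501) or cell replicate 1 (-0.493, 0.0928). The step from sham to ligation, -0.40 ± 0.161 (edgeR adjusted p = 0.0546), passed without sham replicate 2 (-0.470, 0.0465), without ligation replicate 2 (-0.525, 0.0321), and without cell replicate 1 or 2 (0.0323 and 0.0314). It also passed with no filter on low counts (0.0306), in the fit on 2 groups (0.0205) and without mitochondrially encoded genes (0.0433).

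Axl, which fibroblasts and vascular cells also express, was 166, 170 and 180 CPM in sham, 188, 179 and 180 CPM in ligation and 150, 149 and 158 CPM with cells. Its changes with cells were the smallest among the members called in those comparisons. Cells were below ligation by -0.26 ± 0.0541 and below sham by -0.18 ± 0.0543 on the log2 scale (SE; edgeR adjusted p = 0.00316 and 0.0130). The second call was lost without sham replicate 3 (-0.143, adjusted p = 0.0656) and without cell replicate 1 (-0.165, 0.0519), and with scaling by library totals it was -0.0175 (0.819). The 5 fibroblast genes summed to 1480 to 1520 CPM in sham, 1970 to 2030 CPM in ligation and 1970 to 2050 CPM with cells. Dcn and Col1a1 carried most of that rise. Pdgfra was lower in ligation than in sham (log2 change -0.20, edgeR adjusted p = 0.049), and Tcf21 was not called.

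Other genes of the same pathways were followed through a list of 64, of which 61 were tested. In ligation 30 were higher and 5 lower than in sham, where 20.1% and 18.0% of all tested genes were. With cells 3 were higher and 30 lower than in ligation, against 4.19% and 5.69% of all tested genes. With cells 17 were higher and 21 lower than in sham, against 21.0% and 20.0%. Their median log2 fold changes were 0.37, -0.40 and -0.08.

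The ligands of CSF1R showed no call in any comparison. Csf1 was 76.7 ± 2.89 CPM in sham, 76.8 ± 1.28 CPM in ligation and 71.2 ± 5.07 CPM with cells (SD, n = 3), and Il34 was 6.14 ± 0.929, 7.27 ± 1.10 and 6.41 ± 0.461 CPM. Receptors of monocyte entry did change. Ccr2, the receptor by which inflammatory monocytes leave the marrow and enter tissue, was 3.92, 4.45 and 4.60 CPM in sham, 15.3, 13.2 and 16.6 CPM in ligation and 3.83, 4.16 and 3.31 CPM with cells. It rose by 1.79 with ligation and fell by 1.99 with cells against ligation (edgeR adjusted p = 2.41e-07 and 3.71e-07), with cells overlapping sham. Of the members that monocytes carry, Plac8 was also higher in ligation (log2 change 1.56, edgeR adjusted p = 4.63e-05) and Ly6c2 was not. Cx3cr1, the fractalkine receptor of patrolling monocytes and resident macrophages, rose by 0.68 and fell by 1.64 on the log2 scale, and with cells it was below sham (-0.96, edgeR adjusted p = 0.00102). Cx3cl1, its ligand, was higher in ligation than in sham (0.73, edgeR adjusted p = 3.36e-05) and with cells than in sham (0.58, edgeR adjusted p = 0.00042), with no call between cells and ligation. The ligands Ccl2 and Ccl7 passed no test between ligation and sham or between cells and ligation, and Ccl7 was lower with cells than in sham (-0.72, edgeR adjusted p = 0.0188).

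Among 10 myeloid transcription factors, 7 were higher in ligation and 6 were lower with cells than in ligation. Irf8, needed for monocyte development, was 13.0 ± 1.28 CPM in sham, 22.5 ± 1.99 CPM in ligation and 10.1 ± 0.271 CPM with cells (SD, n = 3). Cebpa and Runx1, factors of blood cell formation, were also lower with cells than in ligation, but stayed above sham by 0.99 and 0.93 on the log2 scale (edgeR adjusted p = 1.96e-06 and 0.00563). Id3, also expressed outside the blood lineage, was lower in ligation and higher with cells than in ligation.

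Downstream of the Fc receptor adaptors, 8 of the 10 tested signalling genes were lower with cells than in ligation and 4 were higher in ligation than in sham. Vav1, an exchange factor of blood cells, was 5.82 ± 1.28, 7.46 ± 0.843 and 1.79 ± 0.429 CPM (SD, n = 3) and fell by 2.05 on the log2 scale between ligation and cells (edgeR adjusted p = 3.27e-05). Syk, the kinase that binds the adaptors, rose by 0.89 and fell by only 0.31, and stayed above sham by 0.58 (edgeR adjusted p = 2.15e-05). The further oxidase subunits Cyba, Ncf1 and Rac2 were lower with cells than in ligation and in sham.

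Genes for uptake and lipid handling differed in direction between cells and ligation, a comparison in which 9.87% of all tested genes were called, against 38.2% between ligation and sham. Of 11 genes of apoptotic-cell clearance, 4 were higher and 1 was lower in ligation than in sham, and with cells against ligation 1 was higher (Cd36), 2 were lower and 8 were not called. Of 11 lipid genes, 5 were higher and 2 were lower in ligation than in sham, and with cells against ligation 1 was higher (Lpl), 3 were lower and 7 were not called. The genes given next include the largest falls, and were chosen after their values were seen. The scavenger receptor Msr1 was 10.7, 10.2 and 15.2 CPM in sham, 16.8, 14.6 and 15.2 CPM in ligation and 4.40, 3.05 and 4.03 CPM with cells, and fell by 2.01 on the log2 scale between ligation and cells (edgeR adjusted p = 5.38e-07). Marco, a related receptor, had 0 to 0.476 CPM in sham, 10.1 to 12.4 CPM in ligation and 2.08 to 2.88 CPM with cells. Spp1, which encodes osteopontin, was 2.40 ± 0.455 CPM in sham, 29.0 ± 2.04 CPM in ligation and 14.3 ± 0.516 CPM with cells (SD, n = 3), and like Lgals3 remained above sham. Apoe, the lipid carrier made by macrophages and other cells, was 736 ± 29.3, 1093 ± 22.2 and 646 ± 13.9 CPM. Gas6, the ligand of MERTK and AXL, was 252 ± 8.14, 377 ± 13.6 and 351 ± 9.82 CPM, with no call between cells and ligation (log2 change -0.10, edgeR adjusted p = 0.195).

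Leaving out 1 library at a time kept 31 to 32 of the 32 member calls between ligation and sham, 34 to 38 of the 38 between cells and ligation, and 22 to 27 of the 27 between cells and sham. Over the 35 members that share under 10% of their sequence words and exons with other genes, 26 were higher and 2 lower in ligation than in sham, 0 higher and 32 lower with cells than in ligation, and 4 higher and 17 lower with cells than in sham.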

How the data were processed

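Per the labels' protocols, TRIzol was used for total RNA and an NEBNext Ultra RNA kit for the libraries. Each deposited file holds 1 library's unnormalized whole-number counts of reads per gene. The submitters' processing notes name the build mm10. The aligner, counter and strand setting are not given in the sources used here, so genes with near-identical copies or overlapping neighbours are uncertain. Reads assigned to no gene were 4.14 to 4.91% and ambiguous reads 8.09 to 8.72% of all counts in a file, those outside genes included. Both were left out. Coordinates and exons came from GENCODE (GRCm38). Symbols came from a separate list of gene names, with GENCODE names where that list had none, and 53360 of 53465 identifiers had a symbol.

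Groups and replicate numbers came from the sample titles. Counts were analysed in R 4.3.3 with edgeR 4.0.16: filterByExpr, TMM factors, and a quasi-likelihood fit (glmQLFit, glmQLFTest) over all 9 libraries with 1 mean per group and 6 residual degrees of freedom. Tests were two-sided, and p-values were adjusted over 13825 genes (Benjamini-Hochberg). SEs are the log2 fold change divided by the square root of F. Shared sequence was measured as the share of a gene's 31-base exonic words that occur in another gene. A test on simulated data of 13825 genes for ligation against sham gave 200 genes a log2 change of 1, upward or downward. It recovered 150 (75%) and called 7 unchanged genes. In the data a far larger share of genes was called (38.2%), so these figures hold for the simulated setting only. No pair of replicates agreed within sampling noise (mean chi-square per gene 1.97 to 3.98). Intervals and limits cover counting error only.

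The 45 members and the lists of other genes were chosen with earlier results of these data known. Values per library are given for the genes compared by the rule of the set, for lineage, Fc receptor, adaptor and activation genes taken whatever their values, and for the 3 largest called changes per comparison. Pf4, Laptm5, Mpeg1, Clec4n and Ms4a6c, the pathway genes named with values, and the 7 promoters shown were chosen after their values were seen. Some results are not reported here, though the counts over the set include every member. Alternatives were other scalings, other filters, DESeq2 1.42.0, fits on 2 groups, removal of mitochondrial genes, a replicate block, and leaving out each library. Summing libraries with a common stem in the file header was added after the data were seen. Figures were drawn with matplotlib 3.10.9.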

Additional observations from a re-analysis of the deposited data

Results flagged for a closer look

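Cd209f was the member too low to be tested. Its mean of 1.63 CPM in ligation lay above the sham mean of 0.838 CPM. It has no adjusted p in the 3 comparisons, and entered only the count of members by the CPM ranges of the libraries and the alternatives with another filter on low counts. The library values were 0.890, 0.989 and 0.635 CPM in sham, 1.49, 2.03 and 1.38 CPM in ligation and 0.851, 0.832 and 0.144 CPM with cells. Every ligation library was above every other library. These values rest on 1 to 14 counts per library, and 36.3% of the gene's sequence words also occur in other genes, chiefly Cd209g.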

How the results depend on the processing

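Among the counts of called members and the medians of the resident and recruited sets, DESeq2 and DESeq2's size factors, both other filters on low counts, removal of mitochondrially encoded genes and the sum of libraries with a shared header stem left each within 1.5 times or 1 SD. Scaling by library totals alone called 1 member lower in ligation instead of 3, and moved the recruited medians to 1.72 between ligation and sham and 0.78 between cells and sham. It reversed 3 signs: Lyve1 between ligation and sham (0.0676), and Lyz2 (0.0470) and Fcgr1 (0.0629) between cells and sham. Fits on 2 groups called 5 members lower in ligation than in sham, and gave the resident median between cells and ligation as -1.24, over 3 of the 4 genes. Leaving out 1 library gave recruited medians of 1.42 to 1.61 between ligation and sham and 0.509 to 0.70 between cells and sham, and resident medians of -1.27 to -0.87 between cells and ligation and -1.49 to -1.12 between cells and sham. Ly6c2 between cells and ligation ranged from -0.341 to 0.341 and was negative without ligation replicate 2 (-0.0427) and without cell replicate 3 (-0.341). Apart from the scaling and the smaller number of libraries or genes, which the alternatives change by construction, the cause was not tested.

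When replicate number was added as a block, 30 members were higher and 5 lower in ligation, 0 higher and 38 lower with cells than in ligation, and 4 higher and 22 lower with cells than in sham. The block ended the Folr2 call between cells and sham (adjusted p = 0.0629) and called Fcgr3, Mertk and Chil3 between ligation and sham (adjusted p = 0.0385, 0.0337 and 0.0472). Replicates with the same number did not deviate together (correlations of -0.121 to 0.133 over 9414 genes), so the numbers do not pair the samples. Depth limits Folr2, Chil3, Cd209f, Lilrb4a and Fcgr4, each with 169 counts or fewer over the 9 libraries.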

Other observations

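The neutrophil genes S100a8 and S100a9, outside the member set, were highest in sham. S100a8 was 16.0, 14.0 and 13.3 CPM in sham, 2.98, 3.33 and 4.75 CPM in ligation and 2.41, 1.94 and 1.44 CPM with cells. S100a9 was 21.2, 18.4 and 17.5 CPM in sham, 3.83, 5.93 and 5.12 CPM in ligation and 1.84, 2.50 and 1.73 CPM with cells. Csf3r, the receptor for the growth factor of neutrophils, was 5.34, 2.96 and 4.13 CPM in sham, 4.69, 8.97 and 5.38 CPM in ligation and 1.56, 0.971 and 2.31 CPM with cells, lowest in the cell group but not lower in ligation than in sham. These genes were named after their values were seen.

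The 7 dendritic cell genes summed to 45.4 to 54.0 CPM in sham, 33.9 to 39.9 CPM in ligation and 28.7 to 34.2 CPM with cells. Zbtb46, which endothelial cells also express, made up most of this sum, at 42.9, 26.8 and 24.7 CPM on average. Of the 7 genes, 4 lay wholly above sham in ligation and 1, Zbtb46, below. Itgax, 1 of those 4, had 2 to 5 counts in the sham libraries and 8 to 24 in the ligation libraries. It would not have been tested without the ligation libraries, where it was high, so no p-value is given. Flt3, Xcr1 and Cd209a had too few counts to be tested. The 6 mast cell genes summed to 16.0 to 17.1 CPM, 10.6 to 12.2 CPM and 8.46 to 11.5 CPM in the same order. The 7 peritoneal-type macrophage genes summed to 166 to 174 CPM, 220 to 245 CPM and 191 to 195 CPM, a list in which Gata6, Icam2 and Prg4 are also expressed outside macrophages and carry most of the sum. Alox15 had 0 counts in sham and was 7.11 CPM in ligation and 0.757 CPM with cells on average. Cd5l also had 0 counts in sham and was 9.02 and 1.08 CPM. Both had the largest changes of the list. Neither would have been tested without the ligation libraries, where they were high, so no p-value is given. In sham, ligation and cells, Timd4 averaged 4.198, 4.452 and 2.355 CPM and Icam2 74.8, 41.6 and 45.9 CPM. Gata6 averaged 47.5, 58.1 and 63.1 CPM, and Prg4 43.4, 108.6 and 79.1 CPM. The 5 endothelial genes summed to 1710 to 1810 CPM, 1140 to 1210 CPM and 1260 to 1290 CPM.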
